A study of Homo sapiens with 12 samples.

Results

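Small nucleolar RNAs and Cajal body RNAs were followed across OLR1 knockdown and oxidised phospholipid treatment in SZ95 sebocytes, a human sebaceous gland line that has been immortalised. The members were the genes whose symbol began with SNORD, SNORA or SCARNA and a digit and that were read by a probe set naming 1 gene. They numbered 192 of the 18417 genes tested. By symbol, 115 were C/D box RNAs (SNORD), 61 were H/ACA box RNAs (SNORA) and 16 were Cajal body RNAs (SCARNA). SNORD13P1, SNORD13P2 and SNORD13P3 are listed in RefSeq as pseudogenes. They were counted by symbol with the C/D box RNAs throughout, also in the pairs of member and host. C/D box RNAs pair with ribosomal RNA and guide fibrillarin, which methylates the ribose of the paired nucleotide. H/ACA box RNAs guide dyskerin, which turns uridine into pseudouridine. Cajal body RNAs carry either or both of these box types and guide the same modifications on the small nuclear RNAs of the spliceosome. In human cells most of them are cut out of introns of protein-coding or non-coding host genes, so that the host's transcription and the handling of the intron both bear on their level.

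The 12 arrays formed 4 groups of 3. Cells with OLR1 siRNA and UV-PAPC, cells with OLR1 siRNA left untreated, cells with scramble siRNA and UV-PAPC, and untreated cells with scramble siRNA each had 3. Both siRNAs were delivered by lipofection with Lipofectamine 2000, so all 4 groups had been transfected. UV-PAPC, a phosphatidylcholine with an arachidonoyl chain that had been oxidised by ultraviolet light, was given at 25 µg/ml beginning 24 h after transfection, and OLR1 codes for LOX-1, a receptor of oxidised lipoproteins. The sources used here do not give the length of the exposure, and no group named in the labels received unoxidised PAPC or a vehicle. The labels do not say whether replicates were separate cultures, and p-values measure the spread between these arrays only, which may be technical. In whole-culture RNA, fewer cells of a kind and less RNA per cell cannot be told apart. Values are log2 signals made by the authors with RMA, and log2 fold changes come with the standard error (SE) of a limma fit to all 18417 genes. A gene was called when its Benjamini-Hochberg adjusted p was under 0.05.

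The siRNA target OLR1 read 4.47, 4.33 and 4.41 with OLR1 siRNA and UV-PAPC against 6.19, 5.49 and 5.74 with scramble siRNA and UV-PAPC. In untreated cells it read 4.66, 4.38 and 4.48 with OLR1 siRNA against 6.18, 5.56 and 5.35 with scramble siRNA, so every OLR1 siRNA array lay below every scramble array. Epithelial genes fitted the label: KRT5, KRT7, KRT8, KRT18, KRT19 and EPCAM had mean signals at percentiles 99.2 to 99.9 of all genes, while MC5R, a receptor of differentiated sebocytes, was at percentile 17.1 and KRT14 at 48.4. Of 14 such genes PLIN2, a lipid droplet coat gene, rose with UV-PAPC on average (0.62) and PPARG, MUC1 and CDH1 fell. Over 22 markers of endothelial cells, fibroblasts, leukocytes, melanocytes and neurons the mean log2 signal per array was 4.98 to 5.08 with OLR1 siRNA and UV-PAPC, 5.05 to 5.11 with OLR1 siRNA alone, 5.04 in all 3 arrays with scramble siRNA and UV-PAPC, and 5.01 to 5.06 with scramble siRNA alone. DCN (percentile 1.9), LUM (2.6), PTPRC (3.8) and MLANA (5.9) were near the bottom of the scale, and CDH5 (80.8), MITF (83.7) and CD68 (94.6) were not. The highest deviation of the members from their group means was in the third scramble array with UV-PAPC, with a median of 0.058 and an SD of 0.157 against SDs of 0.096 to 0.129 in the other 11 arrays.

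The sequences that go with the leading results are those of the hosts HSPA8, TCP1 and GAS5 upstream of their transcription start, since the first pair hold SNORD14E, SNORA29, SNORD14C and SNORA20, the 4 members with the highest average UV-PAPC rises, and GAS5 holds 7 members. Each line gives the 250 bases before the start from RefSeq (GRCh38.p14), 5′ to 3′ on the gene's strand. Capitals mark GAANNTTC, the facing pair of repeats at the core of a heat shock element, a motif that reads the same on both strands.
HSPA8 (chr11:123062137-123062386, minus strand): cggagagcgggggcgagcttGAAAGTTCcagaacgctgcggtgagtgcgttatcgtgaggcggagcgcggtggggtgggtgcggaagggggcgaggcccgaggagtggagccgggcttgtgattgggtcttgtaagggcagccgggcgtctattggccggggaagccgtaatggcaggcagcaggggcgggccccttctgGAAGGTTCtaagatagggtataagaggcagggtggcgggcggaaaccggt
TCP1 (chr6:159789603-159789852, minus strand): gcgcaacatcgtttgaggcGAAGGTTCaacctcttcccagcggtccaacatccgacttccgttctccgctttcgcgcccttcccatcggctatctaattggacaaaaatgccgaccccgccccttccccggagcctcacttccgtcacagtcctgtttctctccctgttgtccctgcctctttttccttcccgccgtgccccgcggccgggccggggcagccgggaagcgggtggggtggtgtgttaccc
GAS5 (chr1:173869046-173869295, minus strand): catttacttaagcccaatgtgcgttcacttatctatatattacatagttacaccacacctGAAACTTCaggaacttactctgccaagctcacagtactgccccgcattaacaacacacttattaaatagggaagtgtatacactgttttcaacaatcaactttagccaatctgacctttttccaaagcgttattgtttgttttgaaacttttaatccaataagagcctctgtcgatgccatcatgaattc
The window of HSPA8 held 2 copies, and those of TCP1 and GAS5 held 1 each. GAANNTTC was found in 2030 of the 35116 promoter windows of the RefSeq table (5.78%) and in 6 of 109 windows of host genes (5.5%). The hosts EEF1B2, PTCD3 and SNHG29 held it too, and none of them was called for UV-PAPC on average (0.007, 0.055 and 0.04). The longer GAANNTTCNNGAA, searched on both strands and overlapping the shorter motif, stood in 155 of 35116 windows (0.441%), with 2 copies in HSPA8, 1 in GAS5 and 0 in TCP1. Of the windows of HSPA9 and RABGGTB, both also hosts, neither held a match. A match describes the letters of the window and does not show binding.

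One member could be shown itself, because a miRNA hairpin overlaps its end. SCARNA16, an H/ACA-type Cajal body RNA, pairs with U1 small nuclear RNA and ends in the hairpin annotated as MIR6516, which covers 77 of its 187 nucleotides. Capitals mark the ACA box, with 3 bases after it as in other RNAs of the class.
SCARNA16, 3′ part (chr17:77089417-77089493, plus strand, RefSeq GRCh38.p14): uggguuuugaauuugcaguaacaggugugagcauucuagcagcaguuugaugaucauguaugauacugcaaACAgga

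Signal differed widely among members. Mean log2 signals ran between 2.34 and 13.24 with a median of 5.79 in C/D box RNAs, between 3.17 and 10.91 with a median of 6.06 in H/ACA box RNAs, and between 3.13 and 10.27 with a median of 6.74 in Cajal body RNAs. Above the all-gene median of 6.35 lay 46 of 115 C/D box, 26 of 61 H/ACA box and 10 of 16 Cajal body RNAs. These are signals of different probe sets and do not rank amounts of RNA. The brightest C/D box members were SNORD13 (13.24), SNORD13P3 (12.90), SNORD33 (12.33), SNORD28 (11.90) and SNORD32A (11.09). SNORD13, known as U13, has its own promoter and guides acetylation of small-subunit ribosomal RNA. It was also among the steadiest, reading 13.20, 13.24 and 13.30 with OLR1 siRNA and UV-PAPC, 13.24, 13.19 and 13.29 with OLR1 siRNA alone, 13.19, 13.29 and 13.27 with scramble siRNA and UV-PAPC, and 13.22, 13.24 and 13.19 with scramble siRNA alone. The 4 groups of SNORD13 overlapped throughout. SNORD13P3, listed as a pseudogene, is a near-identical copy and can share the probe signal of SNORD13.

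Among H/ACA box RNAs the brightest were SNORA71C (10.91), SNORA24 (10.71), SNORA71A (10.42), SNORA71D (9.82) and SNORA57 (9.03). All 3 SNORA71 members sit in SNHG17, a non-coding host gene. The 16 Cajal body RNAs, with their mean signals, were SCARNA9L (10.27), SCARNA12 (10.05), SCARNA17 (9.70), SCARNA9 (8.80), SCARNA7 (8.75), SCARNA22 (7.43), SCARNA6 (6.99), SCARNA5 (6.77), SCARNA10 (6.71), SCARNA16 (6.54), SCARNA8 (6.25), SCARNA11 (6.03), SCARNA1 (5.11), SCARNA4 (4.46), SCARNA23 (3.51) and SCARNA14 (3.13). SCARNA5, SCARNA6, SCARNA10 and SCARNA12 are known as guides on U5, SCARNA7 on U1, SCARNA17 on U4 and SCARNA9 on U2 small nuclear RNA.

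A large block of C/D box RNAs was near the bottom of the scale. The 20 SNORD115 and 20 SNORD116 members are repeated copies inside SNHG14, an imprinted transcript of the Prader-Willi region that is best known in neurons. Median mean signals were 2.79 for SNORD115 and 3.53 for SNORD116, and 0 of 20 and 4 of 20 lay above the all-gene median. The 4 were SNORD116-15 (8.72), SNORD116-14 (7.95), SNORD116-20 (7.66) and SNORD116-24 (6.98), and the copies are similar enough for single values to be uncertain. Neither family had a call in any of the 4 pairwise comparisons.

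In the 4 pairwise comparisons 9.9% of the 192 members were called for UV-PAPC with OLR1 siRNA against 6.71% of all genes, and 7.29% for UV-PAPC with scramble siRNA against 7.31% of all genes. For OLR1 siRNA 12.5% of members and 12.5% of all genes were called in UV-PAPC cells, and 6.77% of members against 9.71% of all genes in untreated cells. Member rises and falls numbered 19 and 0 for UV-PAPC with OLR1 siRNA and 7 and 7 with scramble siRNA, and 23 and 1 for OLR1 siRNA in UV-PAPC cells and 12 and 1 in untreated cells. The 4 comparisons share arrays in pairs and are not independent of each other. Medians were small in every class. For Cajal body RNAs the median log2 fold change was 0.13 with UV-PAPC in OLR1 siRNA cells and 0.12 in scramble cells, while C/D box RNAs had 0.04 and 0.01, H/ACA box RNAs 0.06 and 0.04, and all genes -0.01 and -0.00. For OLR1 siRNA the medians in UV-PAPC cells and in untreated cells were 0.06 and 0.03 for C/D box, 0.05 and -0.03 for H/ACA box, 0.06 and 0.06 for Cajal body RNAs, and -0.01 and -0.00 for all genes. Over the 75 C/D box RNAs outside SNORD115 and SNORD116 they were 0.16 and 0.06. For UV-PAPC the medians of these 75 were 0.067 with OLR1 siRNA and 0.005 with scramble siRNA.

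**Figure D1:**
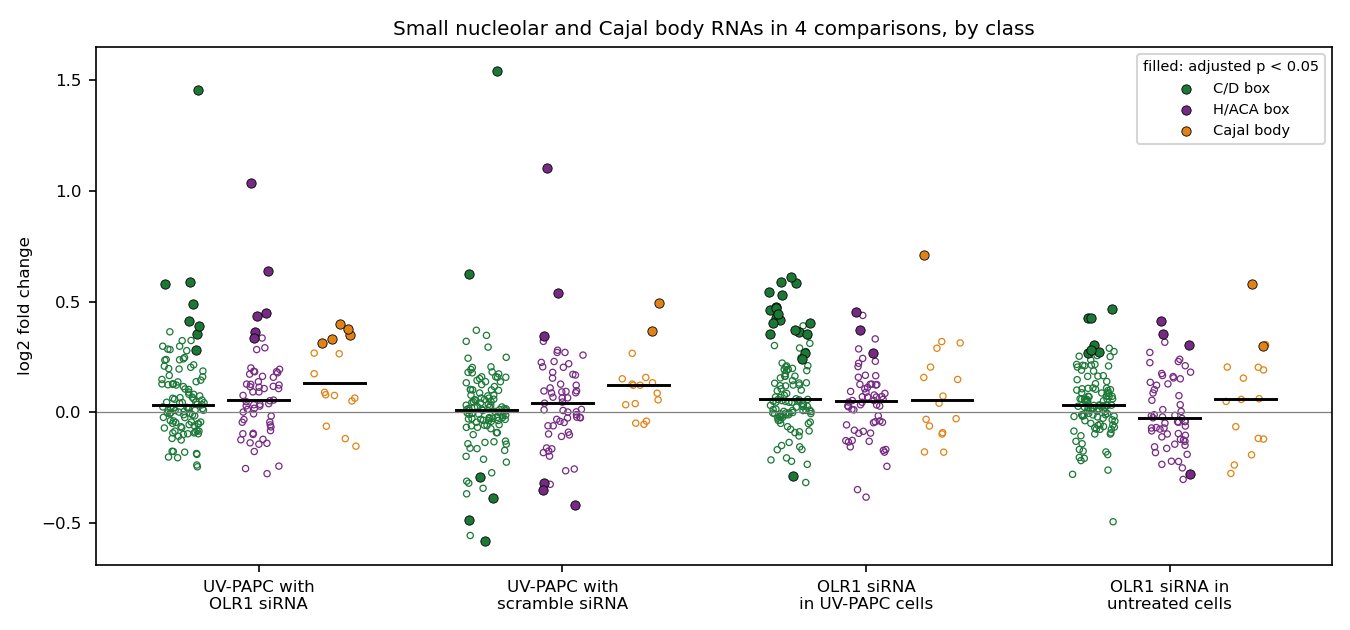
Log2 fold change of the 192 members in 4 comparisons, by class. Each point is 1 RNA, filled where called, and the bar is the class median; the points above 1 are SNORD14E and SNORA29 in both UV-PAPC comparisons.

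UV-PAPC in cells with scramble siRNA raised 7 members and lowered 7. Those that rose were SNORD14E and SNORD14C of the U14 family, SNORA29, SNORA20 and SNORA14A of the H/ACA class, and SCARNA9 and SCARNA9L, while SNORD52, SNORD12C, SNORD75, SNORD78, SNORA3B, SNORA33 and SNORA36C fell. As a share of all genes, 2.67% rose and 4.64% fell. By class, 2 C/D box RNAs rose and 4 fell, 3 H/ACA box RNAs rose and 3 fell, and 2 Cajal body RNAs rose. Arrays of the 2 groups did not overlap in 33 of 192 members, against 24.1% of all genes.

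SNORD14E had the largest response. It is 1 of the U14 RNAs, which in yeast are needed for making the small ribosomal subunit, and it lies inside HSPA8, the gene of the constitutive Hsp70 chaperone. With OLR1 siRNA it read 7.70, 7.86 and 7.47 after UV-PAPC against 5.99, 6.35 and 6.32 untreated. With scramble siRNA it read 7.63, 7.53 and 7.47 after UV-PAPC against 5.86, 6.10 and 6.05 untreated. All 6 UV-PAPC arrays were above all 6 untreated arrays by more than 1 log2 unit. The rise was 2.75-fold with OLR1 siRNA (log2 fold change 1.46, SE 0.11, adjusted p = 4.06e-07) and 2.91-fold with scramble siRNA (1.54, SE 0.11, adjusted p = 2.84e-07).

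SNORD14C, also inside HSPA8, read 10.06, 10.10 and 10.06 with OLR1 siRNA and UV-PAPC against 9.35, 9.30 and 9.83 untreated. With scramble siRNA it read 9.97, 9.95 and 9.93 after UV-PAPC against 9.22, 9.35 and 9.41 untreated. The groups were again apart, with the third untreated OLR1 siRNA array nearest to the UV-PAPC arrays. SNORD14C rose 1.49-fold with OLR1 siRNA (0.58, SE 0.11, adjusted p = 0.00272) and 1.54-fold with scramble siRNA (0.62, SE 0.11, adjusted p = 0.00149). HSPA8 itself read 13.24, 13.16 and 13.19 with OLR1 siRNA and UV-PAPC against 12.78 in all 3 untreated arrays, and 13.06, 13.06 and 12.94 with scramble siRNA and UV-PAPC against 12.84, 12.78 and 12.74 untreated. The host rose 1.33-fold with OLR1 siRNA (0.42, SE 0.06, adjusted p = 0.000598) and 1.18-fold with scramble siRNA (0.24, SE 0.06, adjusted p = 0.0333). Its mean signal was at percentile 100 of all genes.

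The H/ACA box RNAs SNORA29 and SNORA20 lie inside TCP1, which codes for a subunit of the cytosolic chaperonin CCT. SNORA29 read 6.47, 6.26 and 6.02 with OLR1 siRNA and UV-PAPC against 4.79, 5.42 and 5.42 untreated, and 6.18, 6.06 and 6.03 with scramble siRNA and UV-PAPC against 5.23, 4.91 and 4.82 untreated. No untreated array reached a UV-PAPC array. SNORA29 rose 2.05-fold with OLR1 siRNA (1.04, SE 0.15, adjusted p = 0.000403) and 2.15-fold with scramble siRNA (1.10, SE 0.15, adjusted p = 0.000241). SNORA20 read 6.93, 6.89 and 6.93 with OLR1 siRNA and UV-PAPC against 6.08, 6.42 and 6.33 untreated, and 6.59, 6.28 and 6.53 with scramble siRNA and UV-PAPC against 5.87, 5.96 and 5.94 untreated. Groups were apart within each siRNA, and SNORA20 was also higher with OLR1 siRNA than with scramble siRNA within each treatment. Its UV-PAPC rises were 1.56-fold with OLR1 siRNA (0.64, SE 0.09, adjusted p = 0.000312) and 1.45-fold with scramble siRNA (0.54, SE 0.09, adjusted p = 0.00133). The host TCP1 rose 1.29-fold with OLR1 siRNA (0.36, SE 0.07, adjusted p = 0.00439) and 1.25-fold with scramble siRNA (0.32, SE 0.07, adjusted p = 0.0117).

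**Figure D2:**
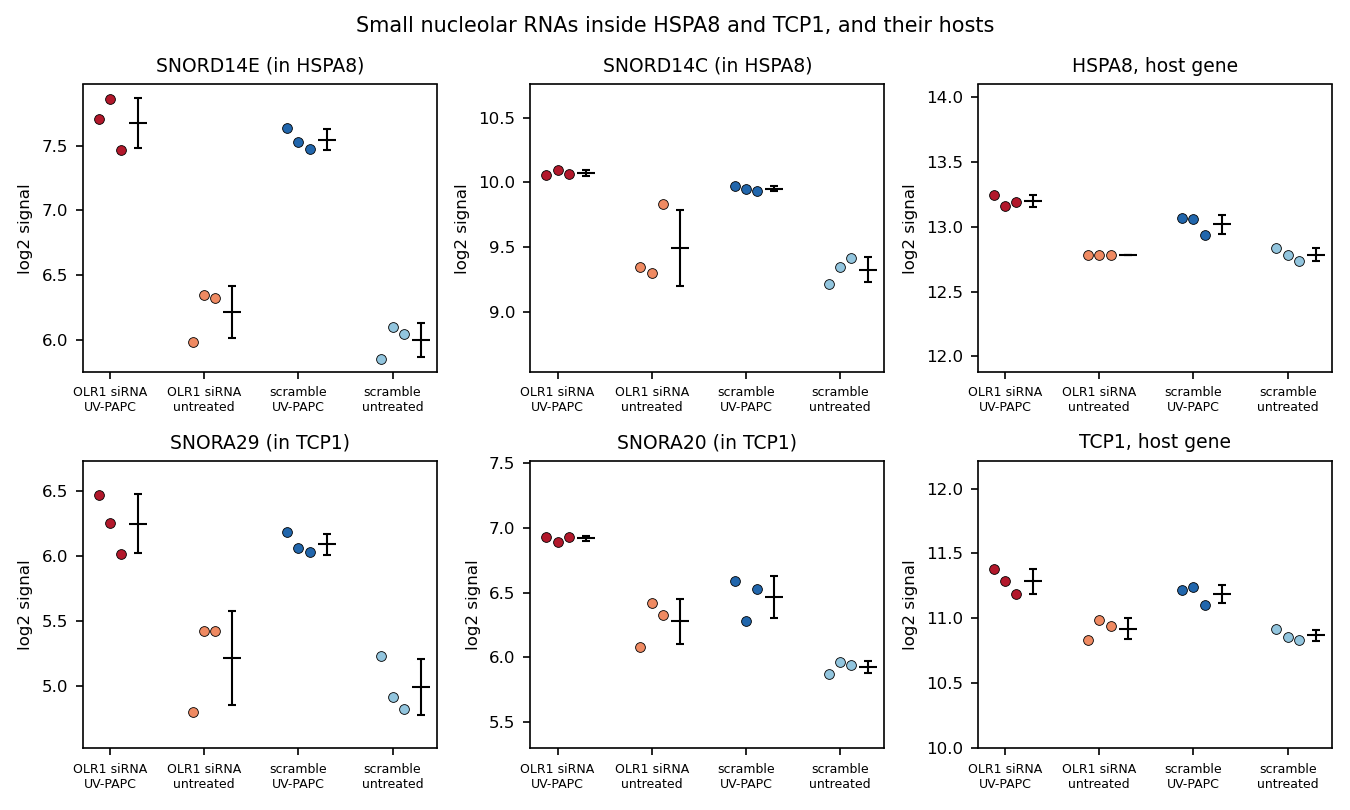
Log2 signal per array of SNORD14E, SNORD14C, SNORA29, SNORA20 and their hosts HSPA8 and TCP1; points are arrays, bars the group mean and SD, and all panels span the same range. SNORD14E reads 7.47 to 7.86 in the UV-PAPC arrays and 5.86 to 6.35 in the untreated arrays.

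Of Cajal body RNAs, SCARNA9L rose in both UV-PAPC comparisons. It read 10.57, 10.62 and 10.60 with OLR1 siRNA and UV-PAPC against 10.16, 10.17 and 10.27 untreated, and 10.26, 10.34 and 10.58 with scramble siRNA and UV-PAPC against 9.86, 10.02 and 9.82 untreated, with no overlap within either siRNA. The rises were 1.32-fold with OLR1 siRNA (0.40, SE 0.08, adjusted p = 0.00642) and 1.41-fold with scramble siRNA (0.49, SE 0.08, adjusted p = 0.00128). When a gene's probe sets were averaged, SCARNA9L had 0.25 with OLR1 siRNA (adjusted p = 0.0694) and 0.30 with scramble siRNA (adjusted p = 0.0226). SCARNA9, the related RNA inside CEP295, read 9.20, 9.19 and 9.05 with OLR1 siRNA and UV-PAPC against 8.64, 8.80 and 8.88 untreated, and 8.72, 8.79 and 8.99 with scramble siRNA and UV-PAPC against 8.64, 8.54 and 8.21 untreated. Its groups were apart too, and its log2 fold changes were 0.38 with OLR1 siRNA (SE 0.11, adjusted p = 0.0422) and 0.37 with scramble siRNA (SE 0.11, adjusted p = 0.0449). SCARNA9 lost the OLR1 siRNA call when any of 6 arrays was left out (adjusted p = 0.0527 to 0.174) and the scramble call without any of 8 (adjusted p = 0.0501 to 0.205), with 0.24 left for scramble siRNA without the third untreated scramble array. SCARNA9 and SCARNA9L are close in sequence and may share signal, while their hosts CEP295 (0.01 with OLR1 siRNA and -0.01 with scramble siRNA) and EIF1AX (0.05 with OLR1 siRNA) were not called.

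Of the 7 members that fell in scramble siRNA cells, 4 were C/D box RNAs of the non-coding hosts SNHG32, ZFAS1 and GAS5. SNORD52, a methylation guide in SNHG32, read 5.78, 5.56 and 5.73 with scramble siRNA and UV-PAPC against 6.32, 6.04 and 6.46 untreated, and fell 1.5-fold (-0.58, SE 0.09, adjusted p = 0.000968). SNORD12C, inside ZFAS1, read 6.77, 6.83 and 6.78 against 7.28, 7.29 and 7.27 and fell 1.4-fold (-0.49, SE 0.09, adjusted p = 0.00244). In both, each UV-PAPC array lay below each untreated array. SNORA3B, inside the ribosomal protein gene RPL27A, read 6.11, 6.12 and 6.13 after UV-PAPC against 6.53, 6.44 and 6.64 untreated and fell 1.33-fold (-0.42, SE 0.07, adjusted p = 0.0014). SNORD75 of GAS5 (-0.39, SE 0.08, adjusted p = 0.00559) fell likewise, and these 4 kept the call under every alternative run. SNORD78 of GAS5 (-0.29, SE 0.07, adjusted p = 0.0141) lost it without the first or the second untreated scramble array or the third scramble array with UV-PAPC (adjusted p = 0.0537 to 0.056). SNORA36C (-0.35), SNORA33 (-0.32) and the rising SNORA14A (0.34) each lost it without any of 4 or 5 single scramble arrays (adjusted p = 0.0507 to 0.153). Entries naming SNORA33 with RPS12 (0.155) or with SNORD101 (-0.041) were not called for UV-PAPC with scramble siRNA.

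In cells with OLR1 siRNA, UV-PAPC raised 19 members and lowered 0. They were 8 C/D box, 6 H/ACA box and 5 Cajal body RNAs, which is 9.9% of members against 3.46% of all genes, while 3.25% of all genes fell. The 7 members that rose with scramble siRNA were all among the 19. The other 12 were SNORD45A, SNORD45B, SNORD45C, SNORD34, SNORD63, SNORD7, SNORA14B, SNORA15, SNORA69, SCARNA7, SCARNA16 and SCARNA17. Arrays did not overlap in 49 of 192 members, 43 of them higher with UV-PAPC, against 23.7% of all genes (2000 of 18417 higher).

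SNORD45C, a methylation guide inside RABGGTB, the gene of a Rab prenylation enzyme, read 6.75, 6.64 and 6.78 with OLR1 siRNA and UV-PAPC against 6.10, 6.08 and 6.22 untreated and rose 1.5-fold (0.59, SE 0.08, adjusted p = 0.00016). In scramble cells it read 6.43, 6.31 and 6.16 with UV-PAPC against 6.21, 6.13 and 6.10 untreated, where the groups overlapped (0.15, SE 0.08, adjusted p = 0.302). SNORD63, inside the mitochondrial Hsp70 gene HSPA9, read 6.17, 6.22 and 6.49 with OLR1 siRNA and UV-PAPC against 5.72, 5.91 and 5.77 untreated and rose 1.4-fold (0.49, SE 0.09, adjusted p = 0.00278). SNORD63 in scramble cells overlapped between the groups (0.13, SE 0.09, adjusted p = 0.475). SNORA14B, inside TOMM20 of the mitochondrial import pore, read 5.87, 5.91 and 6.0 with OLR1 siRNA and UV-PAPC against 5.39, 5.55 and 5.49 untreated and rose 1.37-fold (0.45, SE 0.09, adjusted p = 0.00508). In scramble cells its UV-PAPC arrays were also above the untreated ones (5.91, 5.85 and 5.98 against 5.78, 5.72 and 5.39), without a call (0.28, SE 0.09, adjusted p = 0.0769). None of the differences between the 2 siRNAs passed its own test, as described further on.

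SNORA15, inside the chaperonin gene CCT6A, read 5.79, 5.58 and 5.58 with OLR1 siRNA and UV-PAPC against 5.08, 5.28 and 5.28 untreated and rose 1.35-fold (0.43, SE 0.10, adjusted p = 0.0107). Its call was lost without the first untreated or the first UV-PAPC array of OLR1 siRNA (adjusted p = 0.0639 and 0.0615), and with scramble siRNA its groups overlapped (0.27, SE 0.10, adjusted p = 0.117). The host CCT6A rose by 0.34 with OLR1 siRNA and by 0.26 with scramble siRNA (SE 0.06, adjusted p = 0.00329 and 0.0196). SNORD45B (0.39, SE 0.09) lost its call without the third untreated or the first UV-PAPC array (adjusted p = 0.0603 and 0.0725). The remaining 8 rises lay between 0.28 for SNORD34 and 0.41 for SNORD7, a guide on U6 small nuclear RNA, and each lost the call without any of 3 to 5 single arrays (adjusted p = 0.0503 to 0.159). SNORD7 had 0.25 without the first UV-PAPC array (adjusted p = 0.133). The 3 Cajal body RNAs among them were SCARNA7 (0.35, SE 0.10), SCARNA16 (0.33, SE 0.09) and SCARNA17 (0.31, SE 0.08). SCARNA16, shown in sequence above, read 6.50, 6.74 and 6.67 with OLR1 siRNA and UV-PAPC against 6.25, 6.23 and 6.44 untreated, and its scramble arrays overlapped. Without the first UV-PAPC array the 19 calls became 9, and without the second untreated array 11.

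Averaged over both siRNAs, UV-PAPC raised 26 members and lowered 6, or 13.5% and 3.12%, where 5.95% of all genes rose and 8.03% fell (14% called). Besides the RNAs above, SNORD81, SNORD54, SNORD42A, SNORD94, SNORD13P1, SNORD116-29, SNORA2A, SNORA2B and SNORA22 rose by 0.23 to 0.37, and SNORD50B (-0.40) and SNORA65 (-0.21) fell. All 12 arrays divided cleanly by treatment in 7 members, against 5.2% of all genes (452 of 18417 higher). The 6 that were higher with UV-PAPC were SNORD14E (1.5), SNORA29 (1.07), SNORD14C (0.60), SNORA14B (0.36), SNORD7 (0.33) and SCARNA17 (0.22), with SEs of 0.06 to 0.11. The other was SNORD115-27, near the bottom of the scale and not called (-0.09).

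OLR1 siRNA in UV-PAPC cells raised 23 members and lowered 1, SNORD83A. The rises were 19 of 115 C/D box, 3 of 61 H/ACA box and 1 of 16 Cajal body RNAs. Over all genes 7.94% rose and 4.56% fell, so that 12% of members against 7.94% of all genes rose. Of the C/D box RNAs 16.5% rose, with a median of 0.06. Outside SNORD115 and SNORD116, which lay near the bottom of the scale, 25.3% of 75 rose, with a median of 0.16. Arrays did not overlap in 43 of 192 members, 37 of them higher with OLR1 siRNA, against 30.8% of all genes (3061 of 18417 higher).

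SCARNA10, also called U85, guides both kinds of modification on U5 small nuclear RNA and lies inside NCAPD2, a condensin subunit gene. With UV-PAPC it read 7.08, 6.95 and 7.18 in OLR1 siRNA arrays against 6.04, 6.47 and 6.56 in scramble arrays. Untreated, it read 6.89, 7.02 and 7.07 in OLR1 siRNA arrays against 6.16, 6.62 and 6.46 in scramble arrays. All 6 OLR1 siRNA arrays lay above all 6 scramble arrays. The rise was 1.64-fold with UV-PAPC (0.71, SE 0.13, adjusted p = 0.00206) and 1.5-fold untreated (0.58, SE 0.13, adjusted p = 0.00795). The host NCAPD2 rose by nearly the same amounts, 0.65 in both (SE 0.07, adjusted p = 1.89e-05 and 1.47e-05). Under UV-PAPC the pair parted: NCAPD2 fell by 0.41 with OLR1 siRNA and by 0.41 with scramble siRNA (adjusted p = 0.00117 and 0.0011), while SCARNA10 was at 0.08 and -0.05 (SE 0.13).

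SNORD79, a methylation guide on large-subunit ribosomal RNA inside GAS5, read 8.16, 8.48 and 8.56 with OLR1 siRNA and UV-PAPC against 7.61, 7.73 and 8.04 with scramble siRNA and UV-PAPC, and rose 1.53-fold (0.61, SE 0.12, adjusted p = 0.00313). SNORD45A, inside RABGGTB, read 8.87, 8.87 and 8.80 against 8.29, 8.21 and 8.29 and rose 1.5-fold (0.59, SE 0.10, adjusted p = 0.00103). SNORD12C read 7.33, 7.18 and 7.63 against 6.77, 6.83 and 6.78 and rose 1.5-fold (0.59, SE 0.09, adjusted p = 0.000609). In these 3 RNAs the OLR1 siRNA arrays were above the scramble arrays without overlap. SNORD41, inside the nuclear import gene TNPO2, read 10.12, 10.20 and 10.25 against 9.68, 9.74 and 9.52 and rose 1.46-fold (0.55, SE 0.08, adjusted p = 0.000716). SNORD78 read 8.34, 8.27 and 8.45 against 7.91, 7.80 and 7.75 and rose 1.45-fold (0.53, SE 0.07, adjusted p = 0.000164). These 5, SCARNA10, SNORA20 (0.45, SE 0.09, adjusted p = 0.00462) and SNORD63 (0.46, SE 0.09, adjusted p = 0.00395) kept the call under every alternative run.

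SNORD42A (0.48, SE 0.12) and SNORD77 (0.47, SE 0.12) also rose without overlap, but SNORD42A lost the call without the first or the second scramble array or the third OLR1 siRNA array (adjusted p = 0.0503 to 0.0716), and SNORD77 without the third scramble or the first OLR1 siRNA array (adjusted p = 0.098 and 0.0855). The other rises lay between 0.24 for SNORD74 and 0.44 for SNORD82, and included SNORD45B, SNORD45C, SNORD34, SNORD57, SNORD52, SNORD4B, SNORD75, SNORD54, SNORD30, SNORA22 and SNORA68. SNORD83A, inside RPL3, was the member that fell (-0.29, SE 0.08). That call too was lost without any of 4 single arrays (adjusted p = 0.0868 to 0.108).

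In untreated cells OLR1 siRNA raised 12 members and lowered 1, which made 6.25% and 0.521% against 5.29% and 4.42% of all genes. Arrays did not overlap in 44 members, 33 of them higher, against 28.7% of all genes (2766 of 18417 higher). The 12 were SCARNA10, SCARNA9L, SNORA20, SNORA22, SNORA38B, SNORD79, SNORD45A, SNORD42A, SNORD28, SNORD8, SNORD4B and SNORD57, and SNORA80A fell. The SCARNA9L value of 0.30 became 0.18 when its probe sets were averaged (adjusted p = 0.175). SCARNA10, given above, was the only 1 of the 13 called under every alternative. SNORD45A read 8.34, 8.41 and 8.72 with OLR1 siRNA against 8.25, 7.95 and 8.0 with scramble siRNA (0.43, SE 0.10, adjusted p = 0.00912), and its call was lost only without the second scramble array (adjusted p = 0.0518). SNORD79 read 8.17, 8.31 and 8.36 against 7.95, 7.82 and 7.68 (0.47, SE 0.12, adjusted p = 0.0178), losing the call without the second or the third array of either group (adjusted p = 0.0526 to 0.0884). In both RNAs the groups did not overlap. SNORA38B rose by 0.42 (SE 0.11) beside its host NOL11, a ribosome biogenesis factor (0.35, SE 0.08). The count of 13 fell to 2 without the second scramble array, 3 without the third, 5 without the second OLR1 siRNA array and 4 without the third. Each call here except that of SCARNA10 was lost without at least 1 of those arrays.

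**Figure D3:**
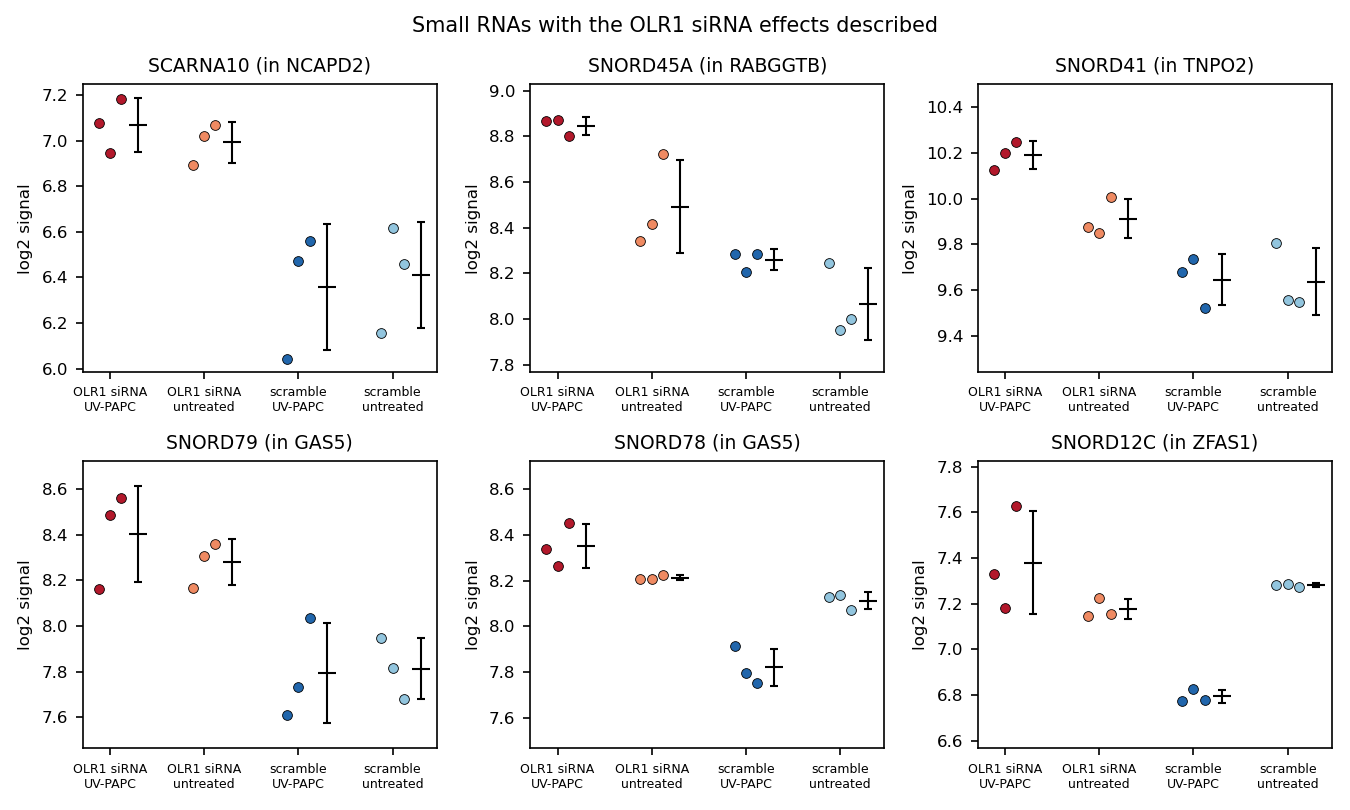
Log2 signal per array of SCARNA10, SNORD45A, SNORD41, SNORD79, SNORD78 and SNORD12C; points are arrays, bars the group mean and SD, and all panels span the same range. In SNORD12C the 3 scramble arrays with UV-PAPC, at 6.77 to 6.83, lie below all 9 others.

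The 2 siRNA comparisons shared 8 rises, which were 8 of the 12 in untreated cells and 8 of the 23 in UV-PAPC cells. Averaged over both treatments, OLR1 siRNA raised 36 members and lowered 3, or 18.8% and 1.56%, where 12.9% of all genes rose and 10.2% fell (23% called). The rises were 25 C/D box, 6 H/ACA box and 5 Cajal body RNAs. Of the C/D box RNAs 21.7% rose, with a median of 0.05. Outside SNORD115 and SNORD116, 33.3% of 75 rose, with a median of 0.14. Arrays divided cleanly by siRNA in 9 members, all higher with OLR1 siRNA, against 8.57% of all genes (967 of 18417 higher). They were SCARNA10 (0.65), SNORD79 (0.54), SNORD45A (0.51), SNORD41 (0.41), SNORD57 (0.34), SNORD4B (0.32), SNORD78 (0.32), SNORD21 (0.20) and SNORD15A (0.18). The first 7 kept the call under every alternative. SNORD21 lost it with repeated quantile normalization (adjusted p = 0.117). SNORD15A lost it there, with all table entries and without any of 7 single arrays (adjusted p = 0.0521 to 0.132). The largest rises beside those above were SNORA3A (0.38), SNORD82 (0.34) and SNORA22 (0.34), and the falls were SNORD56B (-0.36), SNORA74A (-0.33) and SNORD83A (-0.25). Of the 22 markers of other cell types, CDH5 (0.57), CD68 (0.42) and MITF (0.35) rose and TYR (-0.23) fell with OLR1 siRNA, and 18 were not called. Their part in the members' values was not tested.

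Rises shared by UV-PAPC and OLR1 siRNA on average numbered 11, of 26 and 36. They were SNORD45A, SNORD45B, SNORD45C, SNORD42A, SNORD54, SNORD63, SNORA20, SNORA22, SCARNA7, SCARNA9 and SCARNA9L. The averages use the same 12 arrays, in which the OLR1 siRNA arrays with UV-PAPC stand on the raised side of both, so the overlap is no independent result. SNORD45A shows the arrangement: it averaged 8.85 ± 0.04 with both, 8.49 ± 0.20 with OLR1 siRNA alone, 8.26 ± 0.05 with UV-PAPC and scramble siRNA, and 8.07 ± 0.16 with scramble siRNA alone (SD, n = 3 each).

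No member passed the threshold in limma's test of the difference between the 2 UV-PAPC responses, and neither did any of the 18417 genes (0% called). At an unadjusted p under 0.05 there were 23 of 192 members and 1004 of 18417 genes. The lowest p belonged to SNORD12C, whose response was 0.69 higher with OLR1 siRNA (SE 0.13, unadjusted p = 5.15e-05, adjusted p = 0.52), the highest value of this contrast among all genes tested. SNORD12C read 7.33, 7.18 and 7.63 with OLR1 siRNA and UV-PAPC, 7.14, 7.23 and 7.16 with OLR1 siRNA alone, 6.77, 6.83 and 6.78 with scramble siRNA and UV-PAPC, and 7.28, 7.29 and 7.27 with scramble siRNA alone. Only the scramble arrays with UV-PAPC stood apart. Its host ZFAS1 read 8.59, 8.53 and 8.49 with OLR1 siRNA and UV-PAPC, 8.31, 8.48 and 8.34 with OLR1 siRNA alone, 8.52, 8.35 and 8.42 with scramble siRNA and UV-PAPC, and 8.58, 8.36 and 8.33 with scramble siRNA alone. The scramble groups of ZFAS1 overlapped.

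Next in that test were SNORD78 (0.43, SE 0.10, adjusted p = 0.52), SNORD34 (0.42, SE 0.10, adjusted p = 0.577), SNORD45C (0.43, SE 0.11, adjusted p = 0.785) and SNORA36C (0.40, SE 0.13, adjusted p = 0.882). SNORD34 read 8.14, 7.96 and 8.03 with OLR1 siRNA and UV-PAPC against 7.84, 7.68 and 7.76 with OLR1 siRNA alone, and 7.59, 7.67 and 7.59 with scramble siRNA and UV-PAPC against 7.78, 7.73 and 7.75 with scramble siRNA alone. Its UV-PAPC arrays were therefore above the untreated ones with OLR1 siRNA and below them with scramble siRNA. All 5 differences were positive and none was called, which does not show that the responses were alike. The 95% interval for SNORD12C, 0.42 to 0.96, is not adjusted. SNORD12C was picked for the lowest p, so the interval can overstate its difference and does not show one. The C/D box RNAs had a median difference of 0.04 (0.09 outside SNORD115 and SNORD116), all genes 0.01.

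Members that share 1 host were not all called together, and the differences between them were not tested. Of the 7 members inside GAS5, a non-coding host whose spliced RNA is short-lived in growing cells, SNORD75 and SNORD78 fell with UV-PAPC in scramble cells, while SNORD44 (0.09), SNORD74 (-0.14), SNORD77 (-0.13), SNORD79 (-0.02) and SNORD81 (0.20) were not called. With OLR1 siRNA in UV-PAPC cells 5 of the 7 rose, SNORD79 (0.61), SNORD78 (0.53), SNORD77 (0.47), SNORD75 (0.35) and SNORD74 (0.24). SNORD44 was at 0.21 and SNORD81 at 0.13 without a call. In untreated cells 1 of the 7, SNORD79, rose, and SNORD75 was at 0.02 (SE 0.08). The signal of GAS5 itself was not analysed here, since no probe set named it alone. Entries naming GAS5 with another member-type RNA were fitted among all table entries. For OLR1 siRNA in UV-PAPC cells, those with SNORD47 (0.193), SNORD76 (0.113) and SNORD80 (0.65) were not called (adjusted p = 0.388, 0.502 and 0.0523).

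SNORD32A, SNORD33, SNORD34 and SNORD35A lie in RPL13A, and the first, the second and the last of them are known from mouse and hamster cells as RNAs of the response to lipid overload. SNORD33 was between 0.01 and 0.06 and SNORD32A between -0.04 and 0.02 in the 4 comparisons (SE 0.07), with no call. SNORD35A reached 0.25 with OLR1 siRNA in UV-PAPC cells (SE 0.10) and 0.16 with UV-PAPC and OLR1 siRNA, also without a call. The 1 called RNA of this host was SNORD34, which rose by 0.28 with UV-PAPC in OLR1 siRNA cells and by 0.43 with OLR1 siRNA in UV-PAPC cells (adjusted p = 0.000959).

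The 3 members inside RABGGTB were called together in 2 comparisons. With UV-PAPC and OLR1 siRNA, SNORD45A, SNORD45B and SNORD45C had 0.35, 0.39 and 0.59, and with OLR1 siRNA in UV-PAPC cells 0.59, 0.40 and 0.42, all called. The host RABGGTB read 9.05, 9.0 and 8.87 with OLR1 siRNA and UV-PAPC, 8.71, 8.78 and 8.80 with OLR1 siRNA alone, 8.70, 8.69 and 8.40 with scramble siRNA and UV-PAPC, and 8.77, 8.44 and 8.45 with scramble siRNA alone. It rose with OLR1 siRNA in UV-PAPC cells (0.38, SE 0.10, adjusted p = 0.0191) and was not called for UV-PAPC (0.21, SE 0.10, adjusted p = 0.255, with OLR1 siRNA). SNORD45A and SNORD45B are similar RNAs and may share signal. Inside RPL23A, SNORD42A and SNORD4B rose with OLR1 siRNA, SNORD42A by 0.48 in UV-PAPC cells and 0.43 in untreated cells, and SNORD4B by 0.36 in UV-PAPC cells and 0.27 in untreated cells. SNORD4A was at 0.10 in UV-PAPC cells and -0.22 in untreated cells and the host RPL23A at -0.04 and -0.08, with no call.

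**Figure D4:**
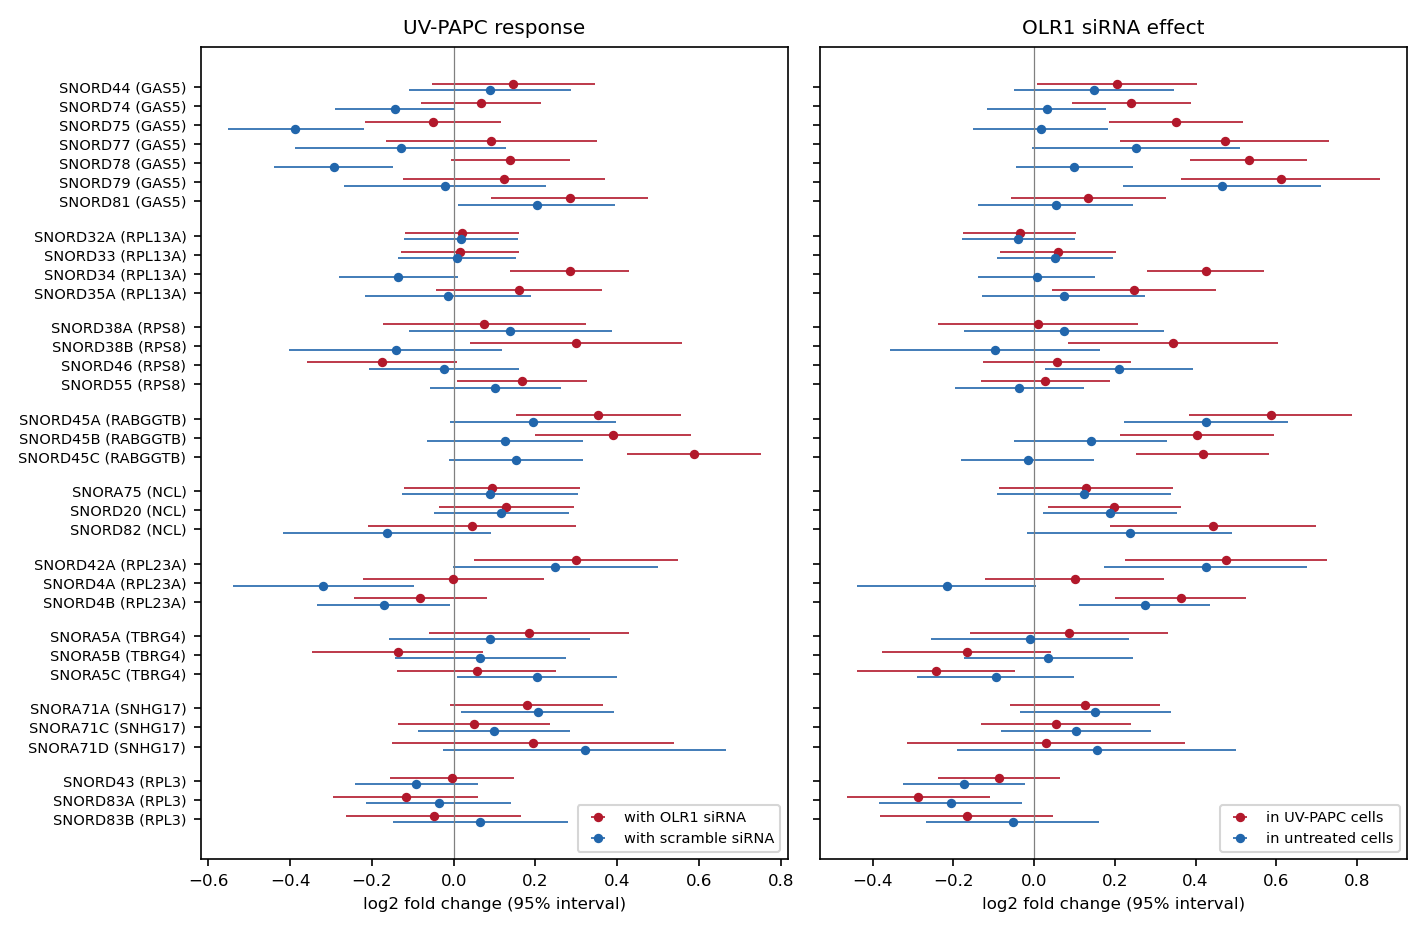
Log2 fold changes with 95% intervals of the members inside 9 hosts that hold 3 or more each, for the UV-PAPC response (left) and the OLR1 siRNA effect (right). SNHG14 and MEG8, which also hold more than 3 members each, are not shown. The GAS5 group spreads between 0.13 and 0.61 for OLR1 siRNA in UV-PAPC cells, and the RABGGTB group lies between 0.40 and 0.59.

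For 94 members the host, found as the gene that contains them in RefSeq, was itself measured by a probe set naming it alone, 72 hosts in all. For the average UV-PAPC effect, Pearson's r between member and host log2 fold changes was 0.51 and Spearman's rho 0.44 over these 94 pairs, and 0.33 and 0.36 over the 90 pairs without HSPA8 and TCP1. For the average OLR1 siRNA effect they were 0.17 and 0.09. The points share arrays, and members of 1 host share its value, so these are descriptions. Of all 94 members 22 had a host called for UV-PAPC, and among the 22 members called themselves 7 had one, in each case with both higher: SNORD14E and SNORD14C of HSPA8, SNORA29 and SNORA20 of TCP1, SNORA15 of CCT6A, SNORD63 of HSPA9 and SNORA14A of POR. The hosts of the other 15 were not called.

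For OLR1 siRNA, 30 of the 94 members had a called host, and so did 13 of the 26 called members, 12 of them both higher. The exception was SNORD63, which rose by 0.28 (SE 0.06, adjusted p = 0.00458) where HSPA9 fell by 0.28 (SE 0.05, adjusted p = 0.000558). HSPA9 read 11.32, 11.19 and 11.23 with OLR1 siRNA and UV-PAPC, 10.93, 10.95 and 11.01 with OLR1 siRNA alone, 11.52, 11.48 and 11.35 with scramble siRNA and UV-PAPC, and 11.37, 11.28 and 11.33 with scramble siRNA alone. Every OLR1 siRNA array of HSPA9 was below the scramble arrays of its treatment, whereas SNORD63 with UV-PAPC read 6.17, 6.22 and 6.49 with OLR1 siRNA above 5.80, 5.82 and 5.87 with scramble siRNA. Conversely, EIF5, the host of SNORA28, rose with UV-PAPC (0.48, SE 0.06, adjusted p = 3.1e-05) while SNORA28 was at 0.14 without a call. A probe set inside an intron can also read unspliced host RNA, and how much of a member's signal that makes was not tested.

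**Figure D5:**
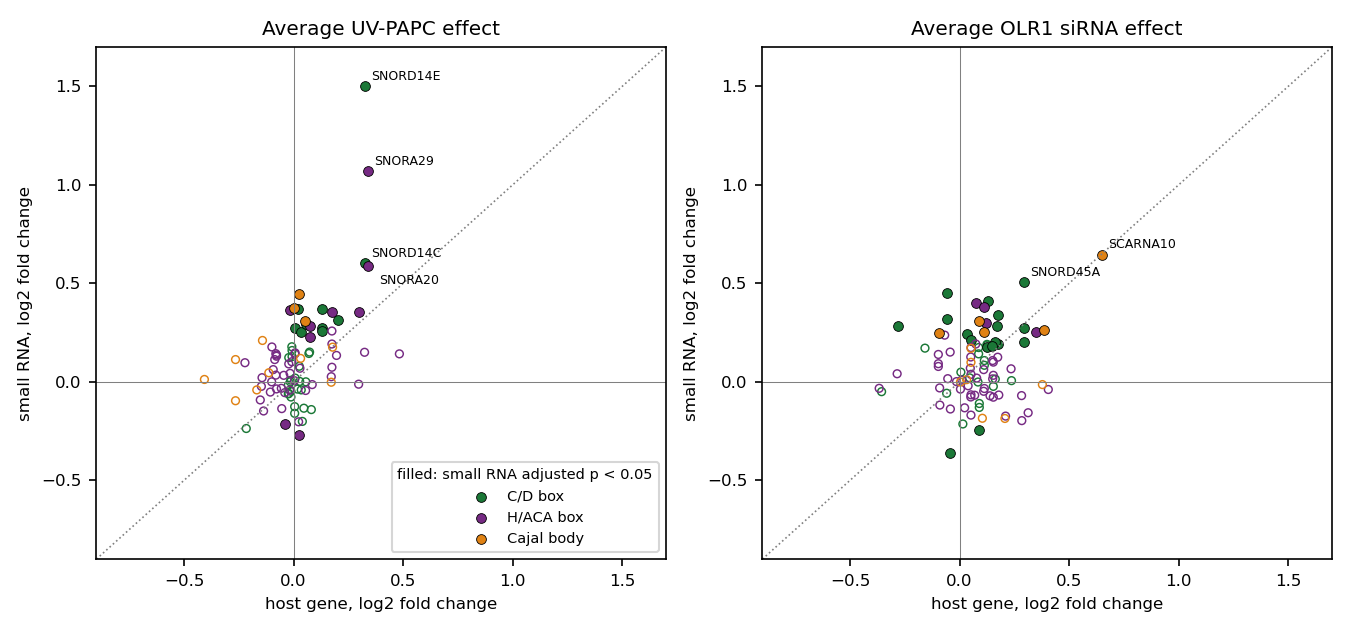
Log2 fold change of 94 members against that of their host for the average UV-PAPC effect (left) and the average OLR1 siRNA effect (right), with a dotted line of equal change and filled points where the member was called. SNORD14E and SNORA29 lie above the line at 1.5 and 1.07, and SCARNA10 lies on it at 0.65.

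Genes of the proteins that bind these RNAs were read as short lists. Over all genes, 6.71% to 12.5% were called in the 4 pairwise comparisons. On average 14% were called for UV-PAPC and 23% for OLR1 siRNA. Lists of 9 and 6 genes are too short to tell 0 calls from such shares. Of 9 measured genes of the C/D box particle and its assembly, among them the methylase gene FBL and NOP58, 0 passed in any of the 4 pairwise comparisons, with medians of 0.10 and 0.06 for UV-PAPC with OLR1 and scramble siRNA. Averaged, the assembly helicase gene RUVBL2 rose with UV-PAPC (0.17), and FBL (0.13) and the assembly factor RPAP3 (0.26) rose with OLR1 siRNA. None of the 6 H/ACA box particle genes, DKC1, NHP2, NOP10, GAR1, NAF1 and SHQ1, was called in any comparison, with medians between -0.05 and 0.08.

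Of 12 measured Cajal body genes, 7 rose with OLR1 siRNA on average, 0 fell and 5 did not pass, with a median of 0.23 where all genes had -0.01. In UV-PAPC cells 6 of the 12 rose and in untreated cells 4, with 0 falls in either. TGS1, which puts the trimethyl cap on small nuclear RNAs and some small nucleolar RNAs, averaged 8.25 with OLR1 siRNA and UV-PAPC against 7.24 with scramble siRNA and UV-PAPC, and 8.24 against 7.23 untreated (1.01, SE 0.07, adjusted p = 1.05e-07). COIL, the coilin gene that marks the body, rose by 0.53 (SE 0.05, adjusted p = 4.61e-06), and USPL1 (0.41), the export adaptor PHAX (0.36), SART3 (0.29), ICE1 (0.27) and NOLC1 (0.19) rose as well. With UV-PAPC 1 of the 12 rose on average, USPL1 (0.28), and 1 fell, FAM118B (-0.23).

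Among 22 genes of small RNA end processing, 8 rose and 2 fell with OLR1 siRNA on average, including the exosome genes EXOSC8 (0.34) and EXOSC3 (0.28), RBM7 of the nuclear exosome targeting complex (0.36), the nuclear exonuclease gene XRN2 (0.28) and DBR1, which opens intron lariats (0.29). With UV-PAPC 1 rose and 3 fell, DBR1 (-0.27), EXOSC10 (-0.17) and PARN (-0.16). TENT4B adds short tails to nuclear RNAs for trimming or decay. It fell with OLR1 siRNA (-0.71, SE 0.05, adjusted p = 1.9e-07) and rose with UV-PAPC (0.54, SE 0.05, adjusted p = 3.54e-06), averaging 8.20 with OLR1 siRNA and UV-PAPC, 7.65 with OLR1 siRNA alone, 8.90 with scramble siRNA and UV-PAPC, and 8.37 with scramble siRNA alone. Of 35 ribosome biogenesis genes 12 rose and 0 fell with OLR1 siRNA, led by TAF1A of the RNA polymerase I machinery (0.54), and 0 rose and 3 fell with UV-PAPC. Of 66 ribosomal protein genes 16 rose and 1 fell with OLR1 siRNA, led by RPS13 (0.48), and 0 were called for UV-PAPC. The 72 measured hosts had 20 rises and 4 falls with OLR1 siRNA and 11 rises and 5 falls with UV-PAPC. For comparison with these lists, 12.9% of all genes rose and 10.2% fell with OLR1 siRNA on average, and 5.95% and 8.03% with UV-PAPC.

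The 24 measured genes of other small RNAs had 1 rise and 4 falls with UV-PAPC on average, with a median of -0.06. TERC, the telomerase RNA and itself an H/ACA box RNA, rose by 0.23 (SE 0.07, adjusted p = 0.0396), and RNU2-1 (-0.37), RNU11 (-0.28), RNU5F-1 (-0.27) and RNU4ATAC (-0.25) of the spliceosome fell. With OLR1 siRNA 4 rose, RNU5D-1 (0.79), RNU4-2 (0.59), RNU5B-1 (0.49) and VTRNA1-3 (0.32), and RN7SL737P fell (-0.30). U4 and U5 genes have near-identical copies, so the single values are uncertain. RNU5D-1 averaged 7.09 with OLR1 siRNA and UV-PAPC against 6.15 with scramble siRNA and UV-PAPC, and 7.24 with OLR1 siRNA alone against 6.60 with scramble siRNA alone.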

How the data were processed

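Total RNA (100 ng) per sample was labelled for hybridisation to 12 single-channel Affymetrix gene arrays. The deposited values are log2 signals; the submitters' processing notes name RMA and Affymetrix Expression Console, version 1.3.1.187. RMA subtracts background, sets all arrays to 1 distribution and summarises probes, so shifts common to all genes are removed. Array medians were 5.73 to 5.83, and the number of arrays limits the precision. Of 33297 table entries 19460 named 1 gene, and the brightest entry per gene gave 18417 genes. A linear model with 4 group means was fitted to all genes with limma 3.58.1 in R 4.3.3, on 8 residual degrees of freedom to which moderation added 7.66, without the replicate number as a block, and p-values were Benjamini-Hochberg adjusted. Hosts are the RefSeq (GRCh38.p14) genes containing a member, without regard to strand; 190 of 192 members had one. Figures were drawn in Python 3.11.15 with matplotlib 3.10.9. Scripts were tested on simulated data. Genes named are the called members of each comparison, or the 10 highest and 10 lowest without overlap where more than 20 were called, the 5 lowest p-values of the difference test, the 5 brightest members per class and all Cajal body RNAs; other called members and list genes were named after their values were seen. The members, gene lists and alternatives were chosen with earlier results of these data known. Entries naming several genes, among them those of SNORD3A and SNORA73A, were left out of the comparisons. Near-identical copies may share signal.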

Additional observations from a re-analysis of the deposited data

Results flagged for a closer look

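Of the table's entries, 76 named a member-type symbol together with another gene and were counted in no comparison above. Fitted in the same way, with p-values adjusted over all table entries (8.21% called for UV-PAPC and 15% for OLR1 siRNA on average), 5 of the 76 were higher and 2 lower with UV-PAPC, and 11 were higher and 1 lower with OLR1 siRNA. These counts are near the shares over all table entries and are no result about such entries. The called entries are listed because the comparisons above left them out. With UV-PAPC the higher entries were SNHG21 with SCARNA15 (log2 fold change 0.43), 2 entries of SNORD103A with SNORD103B (0.36 each), SNHG16 with SNORD1C (0.23) and SNHG11 with SNORA60 (0.15). Both SNORD103 entries hold identical values and are 1 signal. The lower entries were SNORA61 with SNHG12 (-0.54, adjusted p = 0.00016) and SNHG12 with SNORA16A, SNORA61 and SNORA44 (-0.29, adjusted p = 0.00927). With OLR1 siRNA the higher entries were RPL7A with SNORD24 (0.61) and with SNORD36A and SNORD36C (0.19), 2 entries of TAF1D with SNORA40 (0.41 and 0.28), and SNHG1 with SNORD31 (0.31), with SNORD27 (0.29), with SNORD26 (0.23) and with SNORD29 (0.17). RPL13 with SNORD68 (0.21), SNHG16 with SNORD1C (0.20) and RPS12 with SNORA33 (0.20) were higher too, and SNORD64 with PWAR5 was lower (-0.59, adjusted p = 0.00797). Such an entry cannot tell the small RNA and the other gene apart. Groups of 3 arrays are too small for a test of single outlying arrays.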

How the results depend on the processing

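Alternatives changed the scaling, the genes tested, the variance model or the arrays, and no named member changed sign under any of them. Over the named results, 27 calls were lost when all table entries were tested, 14 with repeated quantile normalization, 11 with only the 6 arrays of a comparison and 10 with arrays centred on the members. Leaving out 1 array lost 7 to 19, with 19 without the second untreated OLR1 siRNA array and 17 without the third untreated scramble array. The 19 calls for UV-PAPC with OLR1 siRNA became 12 with the 6 arrays of the comparison alone. The 13 calls for OLR1 siRNA in untreated cells became 2 with all table entries and 6 with repeated quantile normalization, and the 24 in UV-PAPC cells became 44 with array weights. The 32 calls for UV-PAPC on average became 16 with genes above the median mean signal, where fewer members were tested. That filter also gave medians of 0.095 (H/ACA box) and 0.174 (Cajal body) for OLR1 siRNA in untreated cells, -0.042 for the H/ACA box difference of responses and 0.085 for H/ACA box RNAs under OLR1 siRNA on average. Genes with a group mean over 5 gave 0.182 for C/D box RNAs under OLR1 siRNA in UV-PAPC cells. With only SNORD115 and SNORD116 set aside, that C/D box median was 0.164. The causes of these changes were not tested beyond the fewer members. Leaving out 1 array gave 11 to 16 calls for UV-PAPC with scramble siRNA, 9 to 23 with OLR1 siRNA, 2 to 16 for OLR1 siRNA in untreated and 17 to 31 in UV-PAPC cells, 0 for the difference, 27 to 32 for UV-PAPC and 29 to 48 for OLR1 siRNA on average, and -0.013 to 0.087 for the H/ACA box difference of responses, lowest without the second untreated OLR1 siRNA array. The labels do not say what arrays with the same replicate number share. The correlations of their deviations ran between -0.221 and 0.263, with 6 of 18 over 0.1. For arrays with different numbers they ran between -0.26 and 0.266, with 8 of 36 over 0.1. Of 12 arrays, 3 correlated best with their own number. Whether the arrays were paired cannot be told from these values. With the replicate block the counts were 14, 18, 12, 25, 0, 32 and 43 in the order of the 7 comparisons just given. With arrays centred on their medians or on the members, the medians of all genes lay between -0.05 and 0.02.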
